A study of Homo sapiens with 6 samples.

Results

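The microRNA processing and silencing machinery was described here by 10 genes, DROSHA, DGCR8, XPO5, DICER1, AGO1, AGO2, AGO3, TNRC6A, TNRC6B and TNRC6C. They were found by gene symbol, and all 10 were among the 31785 rows of the deposited table. The series holds 6 RNA sequencing libraries from D283 Med, a human medulloblastoma cell line that the study places in Groups 3 and 4 of this cerebellar tumour of childhood. Of these libraries, 3 came from cells labelled as Musashi-1 knockdown (MSI1, which encodes a stem cell protein that binds RNA), and 3 from cells labelled WT. Both groups were the same line, grown in DMEM/F12 with FBS, and no allele, agent or time point separates them in the labels. The sources used here do not give the knockdown method, any control construct in WT cells, or the cultures behind each library, so p-values measure only a spread that may be technical.

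A microRNA starts as a hairpin in a longer transcript. In the nucleus the RNase III enzyme DROSHA and its RNA-binding partner DGCR8, together the Microprocessor, cut the hairpin out, and Exportin-5 (XPO5) carries it to the cytoplasm. There the second RNase III enzyme, DICER1, removes the loop, and a strand of the duplex is loaded into an Argonaute protein (AGO1 to AGO4), which pairs with mRNAs through the seed, bases 2 to 8 of the microRNA. The TNRC6 proteins, also called GW182, bind Argonaute and bring in the deadenylases CCR4-NOT and PAN2-PAN3, which shorten the poly(A) tail and repress the mRNA. Musashi-1 has been linked to this pathway in mouse cells, where it acts with LIN28 to hold back processing of the let-7 family. The data here are mRNA levels, so neither proteins nor mature microRNAs were measured. Since the RNA is from bulk cultures, fewer cells that express a gene and less of its RNA per cell cannot be told apart.

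The sequences below are those that the results refer back to. They are mature microRNAs of RefSeq (GRCh38.p14) with the seed in capitals, namely let-7a, whose processing Musashi-1 and LIN28 are linked to, the pair miR-103a and miR-107, which share a seed with each other and are reported to target DICER1 in human cells, and miR-3618, whose hairpin lies within an exon of DGCR8 (mature sequence at chr22:20085797-20085818, plus strand).
hsa-let-7a-5p: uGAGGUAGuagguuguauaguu
hsa-miR-103a-3p: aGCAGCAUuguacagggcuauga
hsa-miR-107: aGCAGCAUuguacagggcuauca
hsa-miR-3618: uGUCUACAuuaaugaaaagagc

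The knockdown libraries held 24442276, 18895997 and 23369283 reads and the WT libraries 17299671, 38790342 and 29173018 reads, as recovered from the deposited log2-like values. MSI1 mRNA itself stood at 1385.3, 1197.2 and 1281.2 normalised reads in knockdown and 1585.7, 1572.3 and 1377.8 in WT, 85.2% of WT, a difference that missed the threshold (limma, adjusted p = 0.304). The targeted mRNA thus did not separate the groups at the threshold, and the groups are named here as labelled. Of 14 medulloblastoma markers, 9 were tested, 5 higher and 4 lower, while 5 of the 14 had under 30 normalised reads in every library. NPR3, a receptor for natriuretic peptides, fell, with 8449.5, 5841.2 and 8985.6 normalised reads in knockdown and 13197, 14684 and 11277 in WT (difference −0.76, limma, adjusted p = 0.0437, call lost in 8 of 17 alternatives). OTX2 and MYC were higher with no overlap and did not pass (differences of 0.36 and 0.48, limma, adjusted p = 0.229 and 0.0976). OTX2, a transcription factor of this tumour, had 30373 ± 3590 normalised reads in knockdown and 23664 ± 3341 in WT (SD, n = 3 each). The 4 leukocyte markers in the table summed to between 6.44 and 18.9 normalised reads per knockdown library and between 6.94 and 16.9 per WT library, none passing the filter. The fibroblast markers summed to 716 to 1062 in knockdown and 993 to 1304 in WT, endothelial markers to 160 to 313 in knockdown and 162 to 251 in WT, astrocyte markers to 582 to 694 in knockdown and 477 to 1069 in WT, and epithelial markers, mostly the keratin KRT8, to 6070 to 9610 in knockdown and 4475 to 12060 in WT. The summed levels of these 5 lists overlapped between the groups, which says nothing of single markers, and none of their tested genes passed (limma and voom, 0 at an unadjusted p under 0.05).

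A single member of the machinery passed the test, and it was lower in knockdown. TNRC6A fell to 70.9% of WT, while the other 9 lay between 75.9% and 109% of WT and did not pass. All 10 members passed the filter on low values, with 448 to 7887 reads per gene and library. On the deposited log2-like scale, with WT subtracted from knockdown, 3 of the 10 differences were positive and 7 negative, and their median was −0.10, beside 0.0061 over all 13558 genes tested. After each library was corrected for gene length and GC content, 4 differences were positive and 6 negative, with a median of −0.03. Without knockdown 1 the median was −0.07. The count of members called lower (limma, adjusted p under 0.05) was 1 of 10, beside 2.32% of all tested genes called lower and 4.10% called in either direction. At an unadjusted p under 0.05 there were 2 members, TNRC6A and TNRC6C, beside 22.0% of all tested genes. The same 2 genes had groups that did not overlap, both lower in knockdown, beside 13.6% of all tested genes that were lower with no overlap and 27.8% with no overlap in either direction. With 10 members these shares are read as a description and not as a property of the list.

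**Figure D1:**
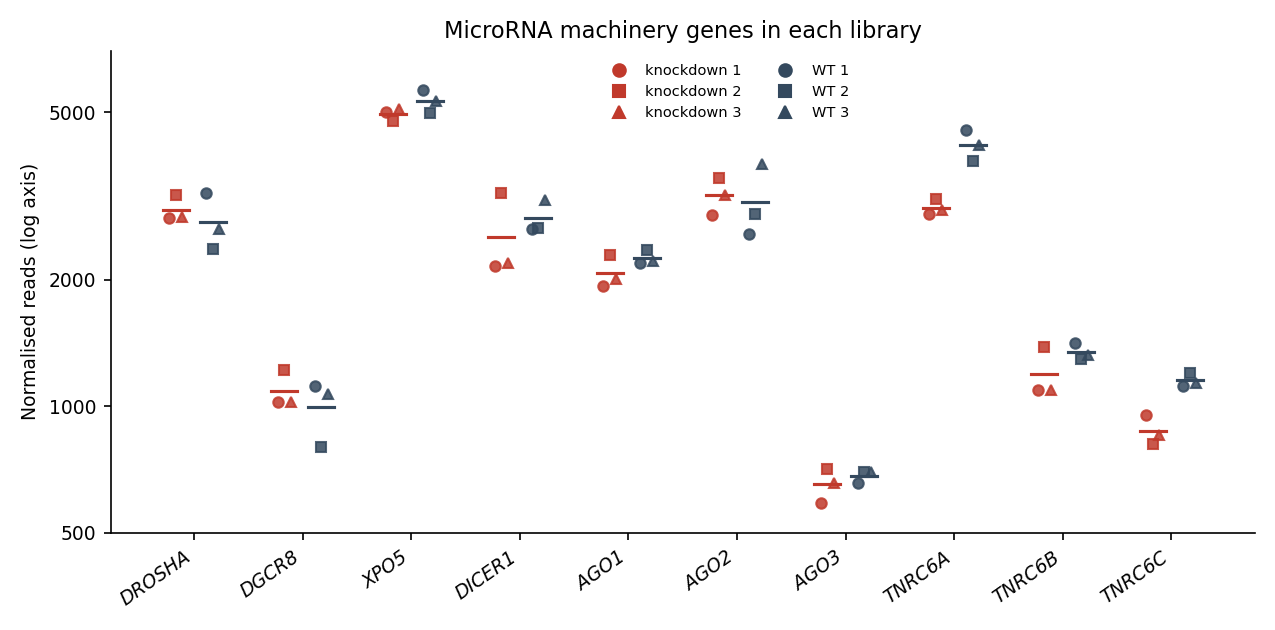
Normalised reads (log axis) of the 10 machinery genes in each library, with knockdown in red on the left of each pair, WT in dark blue on the right, a symbol per replicate number and a bar at the group mean. The knockdown points of TNRC6A and TNRC6C lie below all of their WT points, and in the other 8 genes the groups overlap.

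TNRC6A, the most abundant of the TNRC6 scaffold genes here, lies on the plus strand of chromosome 16 (24610209 to 24827632, GRCh38). It had 2867.8, 3107.4 and 2925.1 normalised reads in the knockdown libraries and 4543.3, 3819.4 and 4187.0 in the WT libraries. The lowest WT library was above the highest knockdown library, and the spread within knockdown was narrow. The means were 2967 ± 125 in knockdown and 4183 ± 362 in WT (SD, n = 3 each), a difference of −0.48 (SE 0.11, 95% interval −0.73 to −0.23, limma, adjusted p = 0.0448). Only 4.99% of all tested genes had a lower difference. Its neighbours on the short arm of chromosome 16 had a median difference of 0.02 over 345 tested genes.

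The TNRC6A difference was negative in each of 17 alternative fits, between −0.54 and −0.40, but the call was near the threshold and was lost in 12 of them (limma, adjusted p = 0.0208 to 0.180). It was kept with equal medians, library weights, a robust variance, the stricter filter and voom on the recovered reads. Leaving out any of the 6 libraries ended it, with limma adjusted p = 0.180, 0.101 and 0.180 without knockdown 1, 2 and 3 and 0.0573, 0.0627 and 0.0676 without WT 1, 2 and 3. Over all genes the calls lower went from 314 to 31, 76 and 50 without knockdown 1, 2 and 3. Without WT 1, 2 and 3 they were 397, 110 and 338.

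TNRC6C, another paralog of the same scaffold, lies on the long arm of chromosome 17 (77959240 to 78108835, plus strand). It had 951.2, 813.6 and 856.3 normalised reads in knockdown and 1120.1, 1198.3 and 1135.2 in WT. The groups were well apart, with the lowest knockdown value in library 2, the one in which most other members were highest. The means were 874 ± 70.4 in knockdown and 1151 ± 41.5 in WT (SD, n = 3 each), 75.9% of WT. The difference of −0.36 (SE 0.11, 95% interval −0.61 to −0.11) did not pass (limma, adjusted p = 0.10). Nor did it pass in any of 17 alternatives, of which library weights came nearest (limma, adjusted p = 0.0529). TNRC6C-AS1, on the opposite strand, overlaps 1438 exonic bases of TNRC6C and had no row of its own. Whether counting used strand is not stated in these sources, so reads of TNRC6C-AS1 may have been counted to TNRC6C.

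The difference of TNRC6C was like that of its chromosome arm. The 578 tested genes of 17q had a median difference of −0.33, 88.9% of them were negative, and 89 of them (15.4%) were called lower. TNRC6C lay at percentile 43.6 among them. The arm's median deviation from each gene's mean was −0.13, −0.19 and −0.17 in knockdown 1, 2 and 3 and 0.15, 0.17 and 0.15 in WT 1, 2 and 3, so all libraries of a group stood together. An alternative chosen after seeing the data shifted the 17q genes of each library to equal medians. It moves every 17q gene by the same amount and leaves the values of other genes unchanged. The difference of TNRC6C was then −0.02 (limma, adjusted p = 0.929). That of TNRC6A, on another chromosome, stayed at −0.48 by construction, with an adjusted p of 0.0525 in limma. The shift thus restates the level of the arm and is no separate test of these genes. What set the level of the arm was not tested. The arms of the other members had medians between −0.02 (5p, with DROSHA) and 0.10 (1p, with AGO1 and AGO3, and 8q, with AGO2).

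**Figure D2:**
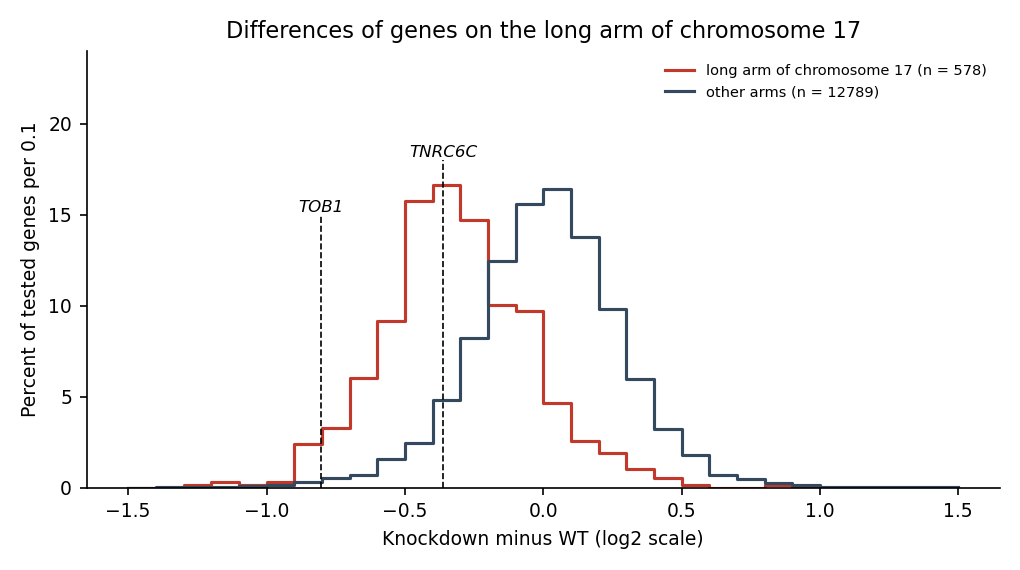
Distribution of the differences (knockdown minus WT, log2 scale) as the percentage of tested genes per bin of 0.1, for 578 genes of the long arm of chromosome 17 (red) and 12789 genes of other arms (dark blue). TNRC6C at −0.36 lies in the middle of the 17q distribution, whose median is −0.33, and TOB1 at −0.80 lies in its lower tail.

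TNRC6B, the third paralog, on chromosome 22 (40044817 to 40335808, plus strand), had 1092.9, 1382.0 and 1095.6 normalised reads in knockdown and 1415.8, 1291.6 and 1324.0 in WT. Knockdown 2 lay within the WT range and the other two knockdown libraries lay below it. The means were 1190 ± 166 in knockdown and 1344 ± 64.4 in WT (SD, n = 3 each), and the difference of −0.17 (SE 0.12, 95% interval −0.44 to 0.11) did not pass (limma, adjusted p = 0.463).

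Summed per kb of exon, a measure added after the values of TNRC6A and TNRC6C were seen and so no independent result, the 3 TNRC6 paralogs gave 362, 383 and 358 normalised reads per kb in knockdown and 523, 468 and 492 in WT. The groups were separate, with means of 368 ± 13.2 in knockdown and 494 ± 27.7 in WT (SD, n = 3 each). Within the sum, TNRC6A made up 62.4 ± 1.02% in knockdown and 65.4 ± 2.05% in WT, and TNRC6C 21.4 ± 2.26% in knockdown and 21.0 ± 1.90% in WT. TNRC6B made up 15.1%, 18.1% and 15.3% in knockdown and 13.5%, 13.8% and 13.4% in WT, with no overlap. Over the 3 shares the exact two-sided permutation p, which cannot go below 0.1 with 3 against 3 libraries, was 0.2 for TNRC6A, 0.1 for TNRC6B and 0.8 for TNRC6C, and adjusted over the 3 the first pair came to 0.3 each. No share could have passed at this size, and the TNRC6B share separated the groups as fully as the sum did.

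**Figure D3:**
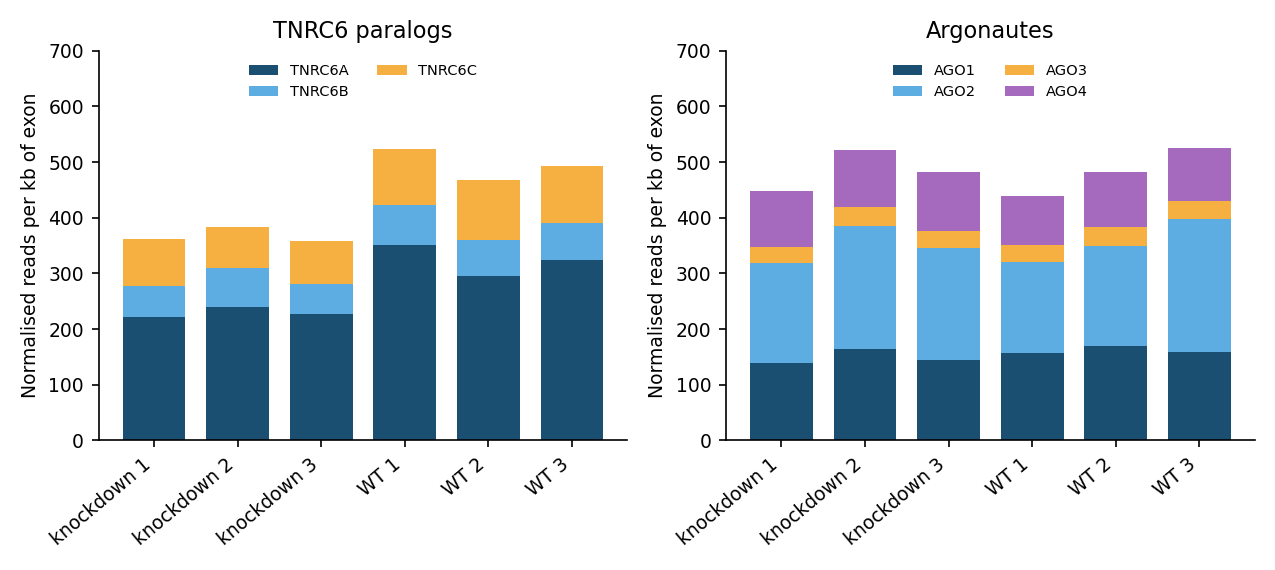
Normalised reads per kb of exon in each library, stacked by gene, for the TNRC6 paralogs (left panel) and the Argonautes (right panel), with the 3 knockdown libraries to the left of the 3 WT libraries. The TNRC6 bars reach 358 to 383 in knockdown and 468 to 523 in WT, and the Argonaute bars overlap at 447 to 521 in knockdown and 438 to 525 in WT.

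The promoters of the TNRC6 genes are shown because these genes had the 3 lowest differences of the machinery. Each stretch holds 250 bases before to 50 after the RefSeq start (GRCh38.p14, plus strand), at chr16:24729401-24729700 for TNRC6A, chr22:40044584-40044883 for TNRC6B and chr17:77958453-77958752 for TNRC6C. The TNRC6A start used by RefSeq lies inside the longer GENCODE gene. Capitals mark matches on either strand to the YY1 motif CCATCTT and to the ETS motif CCGGAAG, which do not overlap here.
TNRC6A promoter: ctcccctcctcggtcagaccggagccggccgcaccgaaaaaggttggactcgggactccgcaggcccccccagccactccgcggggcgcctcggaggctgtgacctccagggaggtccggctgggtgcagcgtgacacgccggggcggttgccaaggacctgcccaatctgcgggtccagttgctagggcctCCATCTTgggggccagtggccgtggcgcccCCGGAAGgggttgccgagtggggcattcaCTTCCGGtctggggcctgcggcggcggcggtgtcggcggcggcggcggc
TNRC6B promoter: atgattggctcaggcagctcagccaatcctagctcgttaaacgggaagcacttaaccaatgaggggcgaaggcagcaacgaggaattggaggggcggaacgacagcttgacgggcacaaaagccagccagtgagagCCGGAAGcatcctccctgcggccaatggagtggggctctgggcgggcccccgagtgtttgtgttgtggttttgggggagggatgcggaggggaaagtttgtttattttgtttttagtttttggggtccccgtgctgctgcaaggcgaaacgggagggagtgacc
TNRC6C promoter: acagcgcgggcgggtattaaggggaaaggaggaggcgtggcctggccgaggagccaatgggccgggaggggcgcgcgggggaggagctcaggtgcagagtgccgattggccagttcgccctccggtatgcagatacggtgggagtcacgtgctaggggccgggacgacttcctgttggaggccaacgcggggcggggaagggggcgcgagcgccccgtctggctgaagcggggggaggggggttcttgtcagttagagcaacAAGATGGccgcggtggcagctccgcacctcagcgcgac

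TNRC6A held 1 YY1 match and 2 ETS matches, TNRC6B 1 ETS match, and TNRC6C 1 YY1 match. The YY1 letters occurred in 5.84% of 35116 RefSeq promoters of the same length and the ETS letters in 10.3%. Of the other members searched, none had the YY1 letters and AGO3 had 1 ETS match. The SP1 motif GGGCGG, present in 45.0% of promoters, was found once in TNRC6A and in 2 copies each in TNRC6B and TNRC6C. The CCAAT box, in 34.6% of promoters, occurred 5 times in TNRC6B, in 2 copies in TNRC6C and once in TNRC6A, and the E-box CACGTG, in 7.26%, once in TNRC6C. The SP1 letters were also found in every other member searched, and the CCAAT box in DROSHA, DGCR8 and AGO1. The AGO2 promoter was not used here. A match is a description of letters, in genes picked for their differences, and binding was not measured. Whether any match goes with the differences was not tested.

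The Microprocessor genes showed no difference beyond the spread between libraries. DROSHA, on the minus strand of chromosome 5 (31400497 to 31532196), had 2801.0, 3180.3 and 2823.2 normalised reads in knockdown and 3219.7, 2361.3 and 2640.4 in WT. The knockdown values lie inside the WT range. The means were 2935 ± 213 in knockdown and 2741 ± 438 in WT (SD, n = 3 each), a difference of 0.10 (SE 0.13, 95% interval −0.19 to 0.40, limma, adjusted p = 0.694).

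DGCR8, on the plus strand of chromosome 22 (20080232 to 20111877), had 1026.1, 1219.8 and 1021.5 normalised reads in knockdown and 1114.2, 801.6 and 1071.5 in WT. The lowest value belonged to WT 2, and without that library the difference of 0.13 (SE 0.14, 95% interval −0.19 to 0.44, limma, adjusted p = 0.652) turned to −0.0085. DGCR8 mRNA is itself known to be cut by the Microprocessor at hairpins in its exons. The files could not show that cut: the hairpins MIR3618 and MIR1306, 88 and 85 bases inside DGCR8 exons, had no row of their own, and a read on them may have been counted to DGCR8. The log2 ratio of DROSHA to DGCR8 per kb was 1.34 ± 0.04 in knockdown and 1.37 ± 0.14 in WT (SD, n = 3 each, exact two-sided permutation p = 0.7).

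XPO5, the export receptor of microRNA hairpins, was the most abundant member per kb in both groups. On the minus strand of chromosome 6 (43522330 to 43576075), it had 5017.1, 4757.2 and 5090.5 normalised reads in knockdown and 5631.2, 4974.2 and 5316.9 in WT. The groups overlap at WT 2. Means were 4955 ± 175 in knockdown and 5307 ± 329 in WT (SD, n = 3 each), 93.4% of WT, with a difference of −0.10 (SE 0.11, 95% interval −0.34 to 0.15, limma, adjusted p = 0.659). POLR1C, on the opposite strand, overlaps 348 exonic bases of XPO5 and had 1006 normalised reads in knockdown and 966 in WT.

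DICER1, on the minus strand of chromosome 14 (95086228 to 95158010), had the widest spread of the members in knockdown. It had 2158.4, 3220.5 and 2192.2 normalised reads in knockdown and 2644.3, 2659.0 and 3091.0 in WT. Knockdown 2 exceeded every WT library, and knockdown 1 and 3 lay below every WT library. The means were 2524 ± 604 in knockdown and 2798 ± 254 in WT (SD, n = 3 each), a difference of −0.16 (SE 0.16, 95% interval −0.51 to 0.19, limma, adjusted p = 0.588). Without knockdown 2 the difference was −0.34 and still did not pass (limma, adjusted p = 0.211).

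The antisense transcript DICER1-AS1, shown because it shares 80 exonic bases with DICER1, had 127 normalised reads in knockdown and 64.6 in WT. Its difference of 0.53 did not pass (limma, adjusted p = 0.0570). At counts this low the log2-like scale shows too small a difference. Whether counting used strand is not stated in these sources, so reads on the shared bases cannot be told apart between the partners.

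The longest annotated 3′ UTR of DICER1, with 4270 bases, held no let-7 match, the letters CTACCTC. It held 5 matches to the seed shared by miR-103a and miR-107, the letters ATGCTGC, more than any other member for its length. The sites are shown because miR-103a and miR-107 are the microRNAs printed above that are reported to target this gene. They lie on the minus strand of GRCh38 at chr14:95089457-95089486, chr14:95088856-95088885, chr14:95087652-95087681, chr14:95086381-95086410 and chr14:95086329-95086358, and capitals mark the seed match.
DICER1 site 1: ttagacatatcacacctaaaatATGCTGCa
DICER1 site 2: tctgaacttgatgcttcgtggaATGCTGCa
DICER1 site 3: tatgctttccgcagtcctaactATGCTGCg
DICER1 site 4: acaataaaatatttaccatcacATGCTGCa
DICER1 site 5: gtcattcattcatacagtaatcATGCTGCa

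Among 11084 tested genes with a 3′ UTR of at least 200 bases, 16.0% had a ATGCTGC match and 12.3% a let-7 match. AGO2 had 5 ATGCTGC matches in 11888 bases, AGO1 and TNRC6B 3 each, AGO3 1, and the other members 0. A let-7 match was found in AGO1 (1), AGO2 (2) and AGO3 (1) and in no other member. None of these microRNAs was measured: of 276 rows of microRNA genes in the table, 1 passed the filter on low values.

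None of the Argonautes passed the test. AGO2, the member of the family that slices perfectly paired targets, had 2846.5, 3490.9 and 3176.2 normalised reads in knockdown and 2566.7, 2860.1 and 3772.6 in WT. The WT libraries spread over the whole knockdown range, with means of 3171 ± 322 in knockdown and 3067 ± 629 in WT (SD, n = 3 each). The difference of 0.06 (SE 0.15, 95% interval −0.27 to 0.39, limma, adjusted p = 0.856) turned to −0.05 without WT 1 and to −0.0092 without knockdown 2.

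AGO1 and AGO3 lie next to each other on the plus strand of chromosome 1 (35869808 to 35930528 and 35930718 to 36072500). AGO1 had 1932.8, 2292.5 and 2011.9 normalised reads in knockdown and 2191.9, 2345.5 and 2218.2 in WT, a difference of −0.11 (SE 0.11, 95% interval −0.36 to 0.14, limma, adjusted p = 0.601). AGO3 had 587.9, 710.5 and 656.7 in knockdown and 656.0, 697.5 and 696.9 in WT, a difference of −0.06 (SE 0.12, 95% interval −0.32 to 0.20, limma, adjusted p = 0.804). In both genes knockdown 1 was the lowest of all 6 libraries, and the groups overlapped through knockdown 2 and, in AGO3, also knockdown 3. The difference of AGO3 turned to 0.05 when each library was corrected for length and GC content.

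AGO4, the remaining Argonaute paralog, had 731.6, 739.4 and 768.3 normalised reads in knockdown and 635.4, 718.4 and 686.2 in WT. The groups did not overlap, but the difference of 0.12 did not pass (limma, adjusted p = 0.579). It was close to its SE of 0.11, which limma draws partly from other genes. Summed per kb, AGO1 to AGO4 gave 447, 521 and 482 in knockdown and 438, 481 and 525 in WT (484 ± 36.8 in knockdown and 482 ± 43.5 in WT, SD, n = 3 each, exact two-sided permutation p = 0.9). AGO2 made up 40.2%, 42.3% and 41.6% of that sum in knockdown and 37.0%, 37.5% and 45.4% in WT (exact two-sided permutation p = 0.7).

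The ratio of the Argonaute sum to the TNRC6 sum, a measure chosen after the values were seen, was 1.24, 1.36 and 1.35 in knockdown and 0.838, 1.03 and 1.07 in WT. Every knockdown library was above every WT library, with means of 1.31 ± 0.0686 in knockdown and 0.978 ± 0.123 in WT (SD, n = 3 each). The ratio restates the lower TNRC6 sum and is given with no test. The difference of 0.336 ranged from 0.266 to 0.381 when each library was left out in turn.

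**Figure D4:**
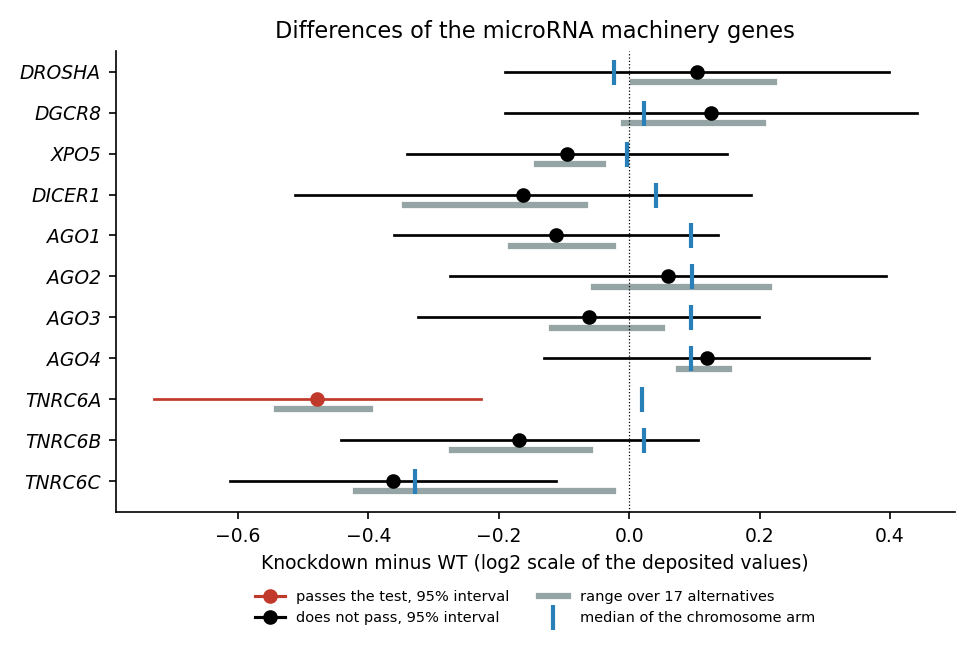
Difference of each gene (knockdown minus WT, log2 scale of the deposited values) as a point with its 95% interval, with the range over 17 alternatives as a grey bar and the median of the gene's chromosome arm as a blue tick. AGO4 is added as the remaining Argonaute paralog. TNRC6A, in red, passed the test at −0.48 away from its arm median of 0.02, and TNRC6C at −0.36 sits beside its arm median of −0.33.

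Levels per kb of exon gave the same order of means in both groups, although some neighbours in that order overlapped. In knockdown the order of mean normalised reads per kb was XPO5 (581 ± 20.5), DROSHA (377 ± 27.4), TNRC6A (230 ± 9.68), DICER1 (205 ± 49.1), AGO2 (200 ± 20.4), AGO1 (150 ± 13.6), DGCR8 (149 ± 15.5), TNRC6C (78.6 ± 6.34), TNRC6B (59.5 ± 8.31) and AGO3 (30.8 ± 2.90; SD, n = 3). DICER1 overlapped both of its neighbours, and AGO1 overlapped DGCR8. In WT the same order gave XPO5 (623 ± 38.6), DROSHA (352 ± 56.3), TNRC6A (324 ± 28), DICER1 (228 ± 20.6), AGO2 (194 ± 39.7), AGO1 (162 ± 5.92), DGCR8 (136 ± 23.2), TNRC6C (104 ± 3.73), TNRC6B (67.2 ± 3.22) and AGO3 (32.3 ± 1.13; SD, n = 3). TNRC6A overlapped DROSHA in WT, and AGO2 overlapped DICER1 and AGO1. The length used was the union of GENCODE 29 exons. With the longest transcript in its place, DGCR8 moved above AGO2, at 232 against 217 in knockdown and 212 against 210 in WT.

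The members shared a feature that the symbols do not fix, their length. Their exon unions ran from 7.32 to 21.2 kb, against a median of 4.93 kb over 13367 tested genes with a length. Knockdown 2 was the highest of the knockdown libraries for 8 of the 10 members, which held for 35.4% of all tested genes and for 47.8% of the 3449 genes at least as long as the shortest member. The exceptions were XPO5 and TNRC6C, lowest in knockdown 2. Those long genes had a median difference of −0.06, 4.06% of them were called lower and 19.8% were lower with no overlap between groups. Their median deviation was −0.06, −0.0023 and −0.03 in knockdown 1, 2 and 3 and 0.02, 0.05 and 0.01 in WT 1, 2 and 3. After each library was corrected for length and GC content, TNRC6A differed by −0.40 and missed the threshold (limma, adjusted p = 0.0621). In the same fit TNRC6C differed by −0.29, DICER1 by −0.09, TNRC6B by −0.06, XPO5 by −0.04 and AGO1 by −0.03, all nearer 0 than without the correction, while AGO2 differed by 0.16, DGCR8 by 0.17 and DROSHA by 0.15. No member was called lower in that fit.

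Beyond the 10 members, 89 further genes of the pathway were listed by role, 87 were in the table and 84 were tested. In knockdown 2 rose and 1 fell (limma, adjusted p under 0.05), beside 1.78% of all tested genes that rose and 2.32% that fell, while 49 were higher and 35 lower with a median of 0.02. Of the 84 tested, 14 had an unadjusted p under 0.05, beside 22.0% of all tested genes. None of the 19 Microprocessor cofactors passed in limma or in voom, with 12 higher and 7 lower (median 0.02). Among these cofactors 4 of 19 had an unadjusted p under 0.05, beside the same 22.0%. The largest difference there was that of ERH, a small partner of DGCR8, with 4887.6, 4806.3 and 4477.8 normalised reads in knockdown and 2370.5, 3734.9 and 3513.1 in WT (0.57, limma, adjusted p = 0.0776). DDX5, an RNA helicase of the Microprocessor on 17q, differed by −0.36 (limma, adjusted p = 0.129). With the 17q medians made equal it differed by −0.03, through a shift that every 17q gene shares by construction. ERH and DDX5 were picked after their values were seen.

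All 4 export and Dicer partners were higher in knockdown (median 0.26), but none passed in limma or in voom, and 2 of the 4 had an unadjusted p under 0.05, beside 22.0% of all tested genes. With 4 genes these counts are a description. TARBP2, the double-stranded RNA-binding partner of Dicer, had 1256.8, 944.4 and 1061.2 normalised reads in knockdown and 887.3, 856.5 and 815.9 in WT. The groups did not overlap, and the difference was 0.31 (SE 0.13, limma, adjusted p = 0.191). PRKRA, its relative that also binds Dicer, had 842.9, 700.4 and 884.2 in knockdown and 701.3, 649.6 and 577.2 in WT, where knockdown 2 fell just under the highest WT library (0.29, SE 0.13, limma, adjusted p = 0.226).

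Of 20 tested genes of Argonaute loading and partners, 1 passed, beside 4.10% of all tested genes. Of the 20, 10 were higher and 10 lower (median −0.0092). MOV10, an RNA helicase bound to Argonaute, rose 1.43-fold, with 2716.0, 2472.3 and 2638.6 normalised reads in knockdown and 1853.6, 1878.8 and 1743.1 in WT. The groups were far apart, at means of 2609 ± 125 in knockdown and 1825 ± 72.2 in WT (SD, n = 3 each; difference 0.49, SE 0.11, limma, adjusted p = 0.0346). The call was kept in 11 of 17 alternatives and lost in 6, with limma adjusted p up to 0.157. The 6 were the replicate block and the fits without knockdown 1, 2 or 3 and without WT 2 or 3. Over all genes the rises went from 242 to 25, 50 and 42 without knockdown 1, 2 and 3. Without WT 1, 2 and 3 they were 329, 94 and 160.

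Of 16 deadenylation genes, which act after TNRC6 recruitment, 1 rose and 1 fell, beside 1.78% and 2.32% of all tested genes. Of the 16, 11 were higher and 5 lower (median 0.06), and with so few genes these counts are a description. CNOT9, the CCR4-NOT subunit that TNRC6 proteins bind, rose 1.42-fold, with 3736.0, 3679.5 and 3390.8 normalised reads in knockdown and 2556.4, 2638.1 and 2436.2 in WT. No values overlapped, and the means were 3602 ± 185 in knockdown and 2544 ± 102 in WT (SD, n = 3 each; difference 0.48, SE 0.11, limma, adjusted p = 0.0370). That call was lost in 7 of 17 alternatives, including each fit without a knockdown library or without WT 2 or 3 (limma, adjusted p = 0.0621 to 0.164). The rises over all genes in those fits are given above for MOV10.

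TOB1, an antiproliferative protein that links CCR4-NOT to poly(A)-binding protein, fell to 54.8% of WT. It had 1218.3, 1526.6 and 1459.3 normalised reads in knockdown and 2202.1, 2235.8 and 3233.7 in WT, with WT 3 well above the others. The means were 1401 ± 162 in knockdown and 2557 ± 586 in WT (SD, n = 3 each; difference −0.80, SE 0.16, limma, adjusted p = 0.0266). TOB1 lies on 17q, and with the medians of that arm made equal it differed by −0.47 (limma, adjusted p = 0.163). Every 17q gene moves by the same amount in that fit, so it is no separate test of TOB1. Without knockdown 1, 2 or 3 TOB1 missed the threshold (limma, adjusted p = 0.121, 0.0670 and 0.0771). Calls lower over all genes also dropped in these 3 fits, as given for TNRC6A.

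The remaining roles showed no called gene in limma or in voom. Of 14 genes of repression, decapping and decay 7 were higher and 7 lower, with 1 at an unadjusted p under 0.05. Of 9 tested genes of microRNA tailing, blocking and turnover 4 were higher and 5 lower, with 0 at an unadjusted p under 0.05. The share over all tested genes was 22.0%. The 2 PIWI genes in the table were not called and had 0 at an unadjusted p under 0.05. The tailing list holds the LIN28 proteins, which block let-7 processing. LIN28B had 240.8, 415.0 and 336.9 normalised reads in knockdown and 322.1, 247.9 and 391.5 in WT, a difference of 0.03 (SE 0.18, limma, adjusted p = 0.946). LIN28A had 7.1, 10.1 and 8.6 in knockdown and 5.9, 2.5 and 10.0 in WT and did not pass the filter. In both genes the groups overlapped.

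**Figure D5:**
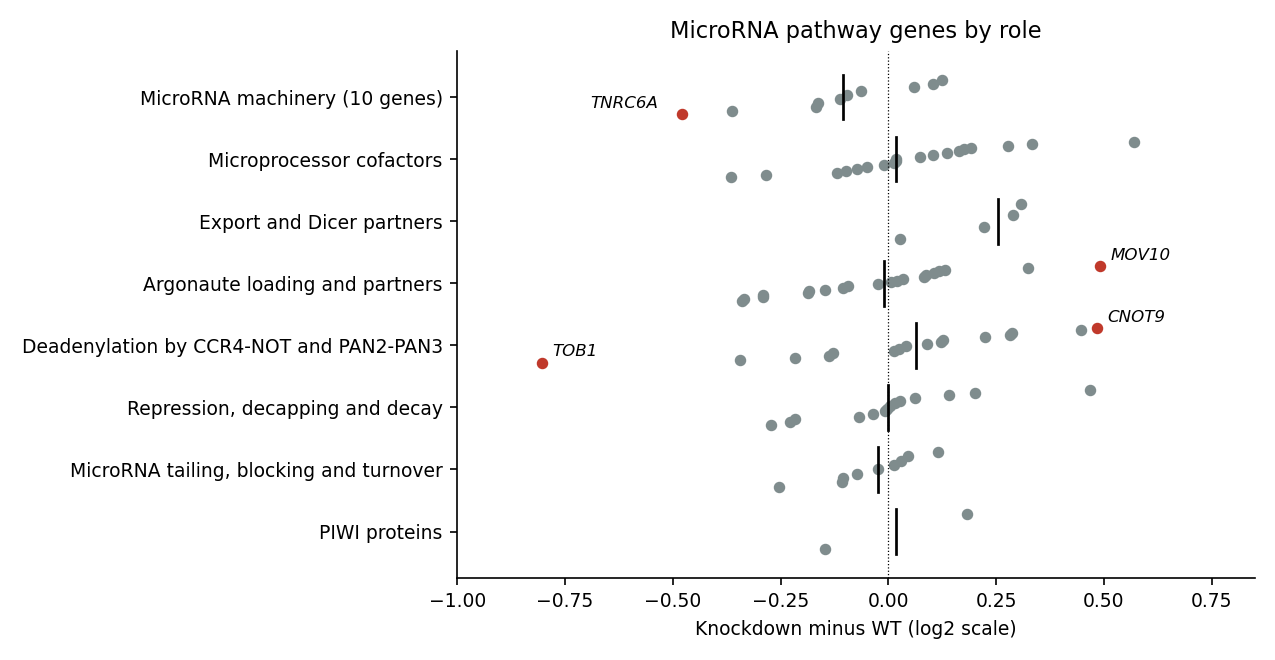
Difference of each tested gene (knockdown minus WT, log2 scale), a point per gene in rows by role, with a black bar at the median of each row and red points for genes that passed the test. The 4 named genes TNRC6A (−0.48), MOV10 (0.49), CNOT9 (0.48) and TOB1 (−0.80) are those that passed, and the medians of the rows lie between −0.10 and 0.26.

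Musashi proteins bind short RNA motifs around UAG, so matches were counted in the longest annotated 3′ UTR of each member. The letters were GTAGT and its forms with 2 or 3 T before the AGT, and the same with A as the first letter, on the sense strand. Which 3′ UTRs these cells use was not tested. Over the 11084 tested genes the median was 1.67 matches per kb, with quartiles of 0.442 and 2.83. DICER1 had 13 matches (3.04 per kb, percentile 78.9), AGO3 50 (2.98 per kb, percentile 78.0) and XPO5 4 (2.60 per kb, percentile 70.8). None of these 3 genes passed the test. TNRC6A, the member called lower in the main fit, had 3 matches in 2420 bases (1.24 per kb, percentile 40.3). TNRC6C had 4 in 3990 (1.00 per kb, percentile 34.8). TNRC6B had 25 (1.99 per kb), AGO2 20 (1.68 per kb), AGO1 17 (1.56 per kb), and DROSHA and DGCR8 1 each. Whether density goes with difference over the members was not tested, and binding by Musashi-1 was not measured.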

How the data were processed

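The submitters' processing notes name STAR, DESeq, Trim Galore, MultiQC, FastQC and CASAVA 1.8.2, with GRCh38 as the build. These sources give no counter, annotation or strand setting. The deposited log2-like values had been divided by size factors and variance-stabilised by the authors, going by the file's name and values, so small counts show too small a difference. The labels do not explain the heading of the WT columns, which were assigned by elimination. Inverting the function (offset 55.2) gave normalised reads, and 100% of values became whole reads within 0.01. The normalised reads printed are from this inversion.

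Genes with a mean at least 1 above the lowest value, 5.79, were kept (13558; 18227 were left out). The test was limma 3.58.1 with a mean-variance trend in R 4.3.3, two-sided, without covariates, Benjamini-Hochberg adjusted over all kept genes, threshold 0.05. Shares and ratios were tested by exact permutation, whose smallest p is 0.1. Alternatives were other scalings, filters and variance estimates, library weights, voom on the recovered reads, the replicate number as a block, correction for length and GC content, and each library left out; equal 17q medians, the TNRC6 sum and the Argonaute to TNRC6 ratio were added after seeing the data. Scripts were tested on simulated data.

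Members and lists were chosen with earlier results of these data known. The genes named are every member, MSI1, AGO4, TARBP2, PRKRA, LIN28A, LIN28B and every called gene of the pathway lists, while the text says where another pathway gene was picked later. Not every antisense or overlapping gene is named, and those named were picked for their shared bases. OTX2, MYC, NPR3 and KRT8 were named after their values were seen. Coordinates and lengths are GENCODE 29 on GRCh38, matched by name (30027 rows); promoters and microRNAs are RefSeq, GRCh38.p14, and 9 of the 10 members were looked up for promoters. MicroRNA seeds and UTR sites were searched on the transcript strand, in the longest annotated 3′ UTR of each gene.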

Additional observations from a re-analysis of the deposited data

How the results depend on the processing

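The direction of TNRC6A held in all 17 alternatives, but its call was lost in 12 of them. The number of members called lower, 1, was 0 without the filter, with quantile normalisation, without the variance trend, with the length and GC correction, with equal 17q medians and without any single library (0 to 0). Over all genes, 242 rose and 314 fell, against 532 and 681 with library weights; leaving out a library gave 25 to 329 rises and 31 to 397 falls, and equal 17q medians 176 falls. Of the other pathway genes, 2 rose and 1 fell. The rises were 1 without the filter and 0 to 2 without a library, and the falls 0 with equal 17q medians and 0 to 1 without a library.

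The replicate numbers did not pair the samples (correlations of the same number −0.0045, −0.25 and 0.0046, and no sample correlated best with its own number). With the number as a block 101 genes rose and 120 fell, 0 members passed and 0 pathway genes rose, and TNRC6A had an adjusted p of 0.103 in limma.

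Some small differences turned round, and the cause was not tested. The AGO2 share went to −0.0710 percentage points without WT 1 (range without a library −0.0710 to 4.12), the TNRC6C share to −0.699 without knockdown 1 and −0.470 without WT 1 (−0.699 to 1.56), and the log2 ratio of DROSHA to DGCR8 to 0.0028 without WT 1 and 0.0166 without WT 2 (−0.11 to 0.0166). DGCR8 turned to −0.0085 without WT 2 (−0.0085 to 0.21), AGO2 to −0.054 without WT 1 and −0.0092 without knockdown 2 (−0.054 to 0.21), and AGO3 to 0.050 with the length and GC correction. The TNRC6 sum per kb (−127, added after seeing the data) ranged from −140 to −112 without a library. With 3 libraries a group, the 95% intervals of single members reach 0.25 to 0.35 to either side (log2), and smaller differences were not detectable. These intervals are not adjusted for the number of genes, and a call needed a larger difference. TNRC6C at −0.36 did not pass (limma, adjusted p = 0.10), and TNRC6A at −0.48 passed narrowly (limma, adjusted p = 0.0448).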

Other observations

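The germline Argonaute relative PIWIL2 was well expressed in this line, with 2269.7, 2287.4 and 2445.4 normalised reads in knockdown and 2528.6, 2684.8 and 2572.9 in WT. The groups did not overlap, and the difference of −0.15 did not pass (limma, adjusted p = 0.447). The deadenylase gene PARN was near 0 in most libraries but uneven, with 2.0, 2.5 and 119.1 normalised reads in knockdown and 0, 47.9 and 1.5 in WT. It did not pass the filter, and what sets its values was not tested. Both genes were picked after their values were seen.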
